A study of Mus musculus with 12 samples.

Results

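The genes described here are 43 interferon-stimulated and antiviral sensing genes of the mouse. They were chosen by name, with earlier results of these data known, as receptors, RNA sensors, transcription factors and effectors of the interferon response. Of these, 39 were measured by a transcript cluster with a single gene symbol, out of 19935 genes tested. Isg15, Gbp2, Igtp and Ifi44 are not analysed here. Their transcripts were measured in the anterior prostate of male mice at 12 weeks of age on Affymetrix Mouse Gene 1.0 ST arrays, whose probes lie along the whole length of a transcript and are grouped into transcript clusters, each with an ID given below in brackets. The APT121 group was 4 pools (8 mice) whose labels give prostatic intraepithelial neoplasia (PIN) lesions, and the wild type group was 8 pools (16 mice) with normal prostate. C57BL/6J and DBA/2 were mixed in the background of all mice (F3 generation), and all ate the semi-purified AIN93G diet from 3 weeks of age. APT121 mice carry T121, a fragment of the SV40 large T antigen that inactivates the pRb family, under the probasin promoter, which is active in prostate epithelium. Each array held RNA of 2 mice in equal amounts, so single mice are not resolved, and the transgene itself is not analysed here. Pools are named by the replicate numbers of their labels.

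Interferons are secreted proteins that warn tissue of viral infection. Type I interferons bind a receptor made of IFNAR1 and IFNAR2, and interferon gamma binds IFNGR1 and IFNGR2. Kinases bound to these receptors activate STAT proteins, which, with IRF9 for the type I signal, switch on the interferon-stimulated genes. Inside cells, the helicases RIG-I (gene Ddx58), MDA5 (Ifih1) and LGP2 (Dhx58) and the endosomal receptor TLR3 recognise double-stranded RNA and lead through IRF3 and IRF7 to the production of more interferon. The DNA element that the type I signal uses is called the interferon-stimulated response element (ISRE). Its core holds a pair of GAAA repeats separated by any 2 bases.

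Promoter windows of the members were read to show what the genes share in sequence. The windows, from RefSeq on build GRCm38.p6, run from 250 bases before to 50 bases after an annotated start site, and 32 of the 39 measured genes had at least 1 window. Dhx58, Oas2, Mx1, Mx2, Usp18, Parp9 and Parp14 had none in the table. The ISRE core, GAAA NN GAAA with N for any base, searched on both strands, was present for 13 of the 32 genes (40.6%), against 3.99% of all 27025 genes with a window. Of the 22 genes with a window that were higher in APT121, 11 held it, as did 0 of the 4 with a window that were lower and 2 of the 6 that did not pass the test. The members were chosen as genes of the interferon response, so their share is not free of that choice. By role, 0 of the 4 receptor chains held the ISRE core. The GAS core TTCNNNGAA, the element of STAT dimers, was present for 12 of 32 genes (37.5%), against 9.55% of all genes. It was held by 8 of the 22 that were higher, 2 of the 4 that were lower (Irf8 and Isg20) and 2 of the 6 that did not pass (Ifnar1 and Ifnar2). Of E2F sites, only the forms TTTCCCGC and TTTGGCGC were searched. Either was present for 1 of 32, Ifit2, against 1.80% of all genes. A match describes the letters and does not show that a factor binds there. The windows of the 6 members with the largest rise among those holding an ISRE core are shown 5′ to 3′ on the strand of the gene, with the core in capitals (read as TTTC NN TTTC where it lies on the other strand).
Ddx58, chr4:40239776-40240075, minus strand: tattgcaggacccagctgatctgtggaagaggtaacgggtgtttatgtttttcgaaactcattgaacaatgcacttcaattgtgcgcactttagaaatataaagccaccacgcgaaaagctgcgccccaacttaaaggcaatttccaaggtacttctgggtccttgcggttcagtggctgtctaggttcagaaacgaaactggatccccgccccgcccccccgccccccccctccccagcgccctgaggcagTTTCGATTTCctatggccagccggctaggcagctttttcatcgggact
Oas1a, chr5:120907476-120907775, minus strand: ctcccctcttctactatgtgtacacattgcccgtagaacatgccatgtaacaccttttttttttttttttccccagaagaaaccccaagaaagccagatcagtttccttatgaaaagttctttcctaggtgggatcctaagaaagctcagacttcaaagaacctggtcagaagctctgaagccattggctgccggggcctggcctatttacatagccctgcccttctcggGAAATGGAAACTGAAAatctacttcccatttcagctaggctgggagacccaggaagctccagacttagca
Ifit1, chr19:34640639-34640938, plus strand: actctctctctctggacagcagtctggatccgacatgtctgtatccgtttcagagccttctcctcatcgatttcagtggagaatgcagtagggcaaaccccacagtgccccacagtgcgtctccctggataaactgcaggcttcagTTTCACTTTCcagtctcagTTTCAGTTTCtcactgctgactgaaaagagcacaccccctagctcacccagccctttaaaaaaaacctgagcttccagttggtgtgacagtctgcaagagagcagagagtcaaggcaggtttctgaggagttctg
Irgm1, chr11:48871371-48871670, minus strand: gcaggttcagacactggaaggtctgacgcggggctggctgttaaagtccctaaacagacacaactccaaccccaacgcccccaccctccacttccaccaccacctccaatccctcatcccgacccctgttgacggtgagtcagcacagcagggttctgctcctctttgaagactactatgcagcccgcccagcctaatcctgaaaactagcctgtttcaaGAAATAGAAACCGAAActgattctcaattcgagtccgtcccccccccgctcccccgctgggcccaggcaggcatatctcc
Ifih1, chr2:62646206-62646505, minus strand: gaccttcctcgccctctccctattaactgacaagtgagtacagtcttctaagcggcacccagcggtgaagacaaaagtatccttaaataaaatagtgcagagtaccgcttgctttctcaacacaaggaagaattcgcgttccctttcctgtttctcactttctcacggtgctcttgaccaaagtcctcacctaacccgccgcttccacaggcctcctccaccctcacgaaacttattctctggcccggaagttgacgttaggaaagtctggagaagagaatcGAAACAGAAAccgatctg
Irf2, chr8:46739495-46739794, plus strand: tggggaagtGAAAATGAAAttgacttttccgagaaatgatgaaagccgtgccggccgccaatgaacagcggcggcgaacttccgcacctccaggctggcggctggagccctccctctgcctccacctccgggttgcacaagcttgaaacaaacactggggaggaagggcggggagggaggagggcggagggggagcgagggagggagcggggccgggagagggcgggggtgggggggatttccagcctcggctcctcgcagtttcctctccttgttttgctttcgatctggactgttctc

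In these windows the place of the core differed from gene to gene. It began at base 3 after the start site in Ddx58 and at base 33 in Ifih1, at -241 in Irf2 and at -104 and -85 in Ifit1, counting the first transcribed base as 1. Oas1a (-20 and -14) and Irgm1 (-30 and -24) each held 2 overlapping matches, as did Gbp3 (-45 and -39) and, further from the start site, Bst2 (-130 and -124). Oasl2 and Irf7, both among the genes with the largest rises, had no exact core in their windows.

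**Figure D1:**
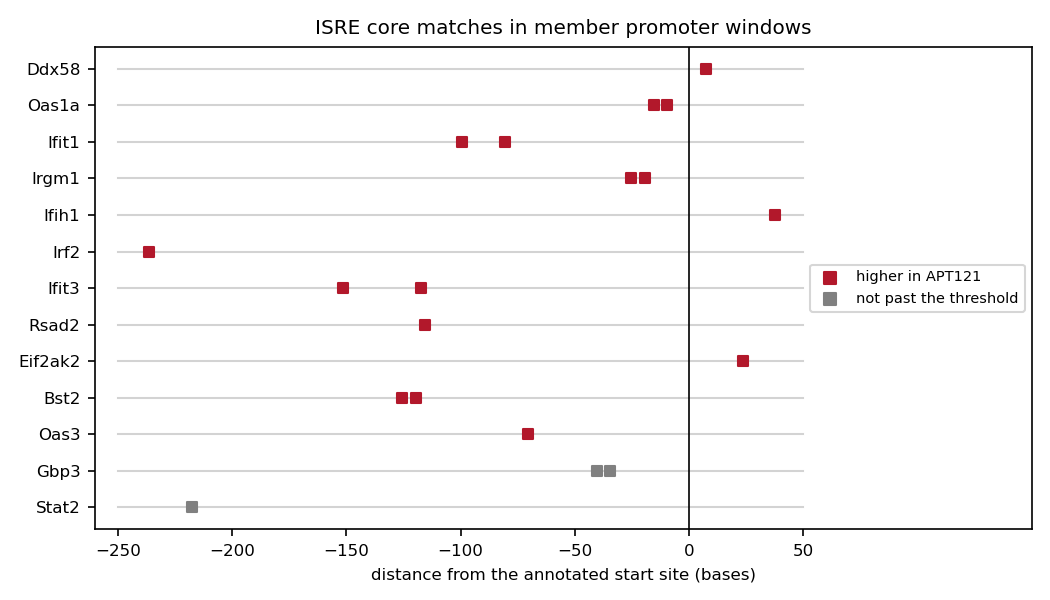
Position of each ISRE core match (squares, at the middle of the match) in the promoter windows of the 13 members that hold one, as distance from the annotated start site in bases, with genes ordered from the largest rise in APT121 at the top. The 11 genes in red were higher in APT121 and the 2 in grey did not pass the test, and the first bases of the matches run from -241 in Irf2 to 33 in Ifih1.

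The comparison of APT121 with wild type prostate asks which of these transcripts differ in tissue that carries PIN lesions. Most were higher in APT121. Of the 39 measured genes, 32 passed the test in either direction, as did 52.8% of all genes. Of the 39, 27 rose (69.2%, where 22.8% of all genes tested rose), 5 fell (12.8%, where 30.0% of all genes fell) and 7 did not pass. The members were chosen with earlier results of these data known, so these shares describe the list and are no independent test. The 27 comprised all 4 RNA sensors, 4 of 8 transcription factors, 18 of 23 effectors and 1 of 4 receptor chains. At least 2-fold rises numbered 12 of the 39, against 1143 of all 19935 genes (5.73%). The median difference of the 39 genes was 0.62, beside -0.09 for all genes. Centring each array on its median gave 0.57 for the members and -0.15 for all genes. For 21 members all 4 APT121 pools lay above all 8 wild type pools (17.7% of all genes did so), and for 3 all lay below (16.9% of all genes).

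Here and below, levels are log2 of the deposited intensity and means carry their SD over 4 APT121 and 8 wild type pools. A difference is the APT121 mean less the wild type mean, in log2 units, with its SE. Every adjusted p comes from the limma fit of all 19935 genes and is read against 0.05. The array medians lay between 32.1 and 33.6 in APT121 and between 32.4 and 33.7 in wild type on the linear scale. In wild type prostate the luminal markers Pbsn (12.79 ± 0.07) and Krt18 (11.48 ± 0.06) were far above the median gene mean of 5.38, as the labelled tissue implies. In APT121 prostate Krt18 was 11.45 ± 0.03 and Pbsn 9.53 ± 0.58. Whether a low value lies above background was not tested, since the table gives no detection calls, and 12 of the 39 members had a mean not above that of the median gene. The pools are whole tissue, so more cells of a type and more RNA per cell cannot be told apart.

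**Figure D2:**
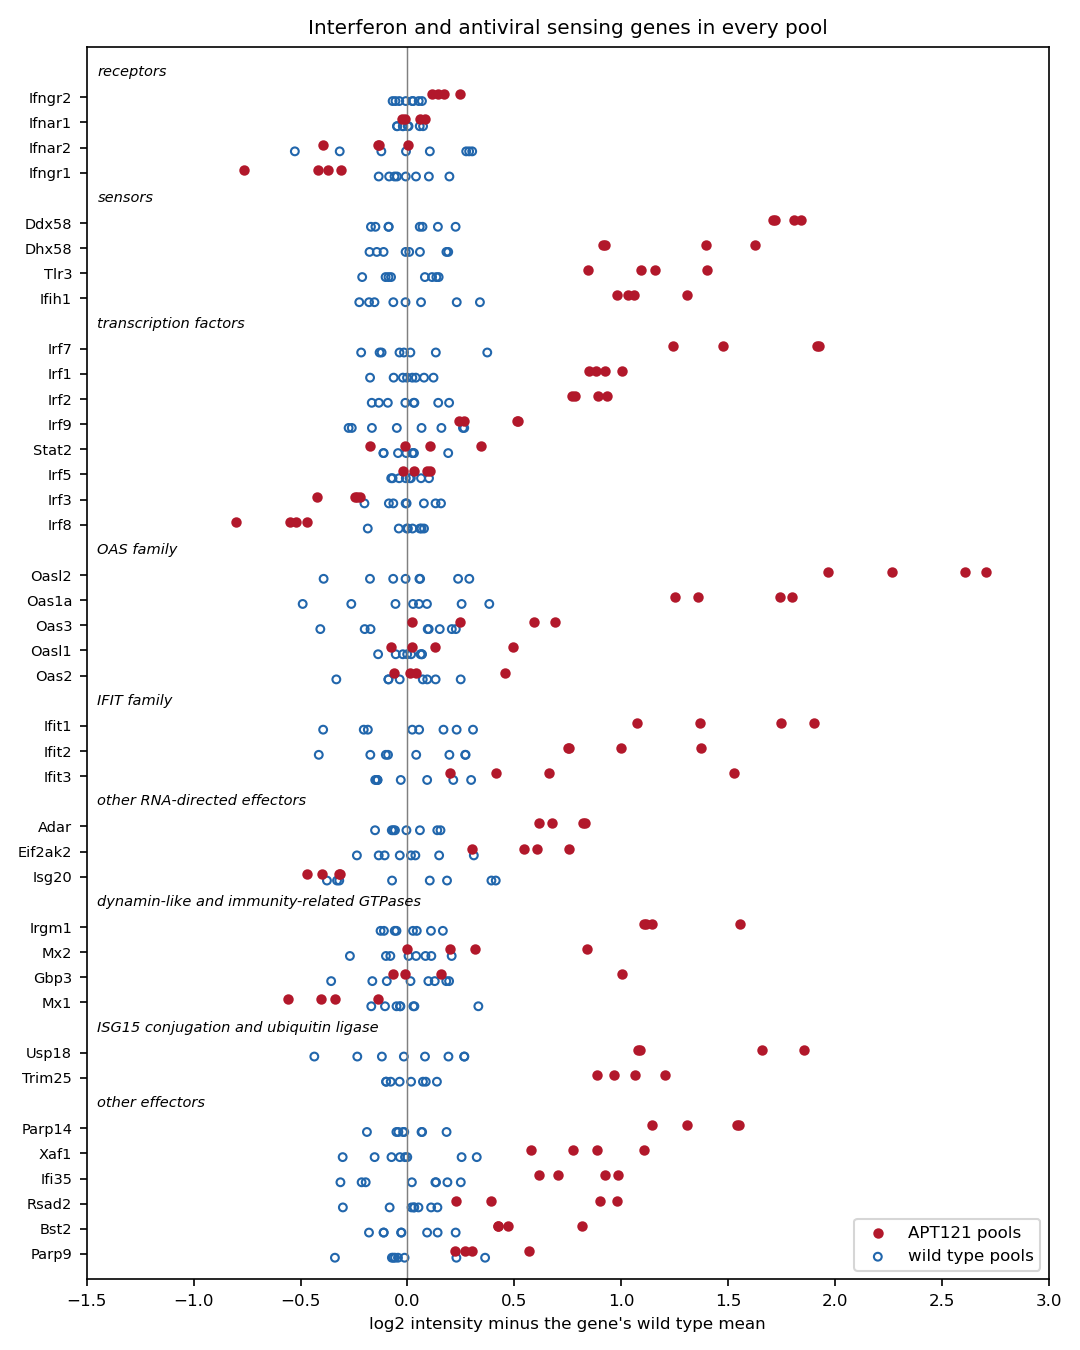
Log2 intensity of every measured member in every pool, minus the gene's wild type mean (x axis), with genes in rows grouped by role. Filled red points are the 4 APT121 pools and open blue points the 8 wild type pools; the 4 sensors and most effectors have all red points to the right of the blue ones, while Irf8, Irf3 and Ifngr1 have them to the left.

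The 4 receptor chains among the members moved little. Ifngr1, the ligand-binding chain of the interferon gamma receptor (transcript cluster 10361897), had 9.07, 9.17, 9.11 and 8.72 in the 4 APT121 pools, against 9.35 at the lowest, 9.46 at the median and 9.68 at the highest in the 8 wild type pools. All APT121 pools were below all wild type pools, pool 4 the furthest, and the fall was 1.38-fold (-0.47 ± 0.09, adjusted p = 3.03e-04). Its partner chain Ifngr2 (10436865) had 9.61, 9.71, 9.58 and 9.63 in APT121 pools and 9.39, 9.47 and 9.53 as the lowest, median and highest in wild type pools. That small rise (0.17 ± 0.06, adjusted p = 0.0199) separated the groups but lost its call after centring (0.12, adjusted p = 0.0993), after quantile normalisation (0.09, adjusted p = 0.158), without APT121 pool 2 (0.14, adjusted p = 0.0774) and against wild type pools 5 to 8 alone (0.14, adjusted p = 0.0953).

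Neither chain of the type I receptor passed the test. Ifnar1 had 7.58, 7.47, 7.56 and 7.49 in APT121 pools and 7.45, 7.49 and 7.57 in wild type pools, a difference of 0.03 ± 0.06 (95% interval -0.09 to 0.14, adjusted p = 0.714). Ifnar2 had 7.22, 7.36, 7.23 and 6.96 in APT121 pools and 6.83, 7.41 and 7.66 in wild type pools, a difference of -0.17 ± 0.14 (interval -0.47 to 0.14, adjusted p = 0.338). Both overlapped, and for Ifnar2 wild type pools 1 to 4 were all below pools 5 to 8. Against wild type pools 5 to 8 alone its difference was -0.41 (adjusted p = 0.00357), and against pools 1 to 4 alone it was 0.077 (adjusted p = 0.619). Il10rb, the shared chain of the interferon lambda and interleukin 10 receptors, lies between Ifnar2 and Ifnar1 in the gene order of GRCm38.p6, with Ifngr2 next after Ifnar1. Il10rb rose by 1.07 ± 0.09 (adjusted p = 8.39e-08), with 8.29, 8.21, 8.00 and 8.27 in APT121 pools against 6.83 to 7.33 in wild type pools.

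All 4 sensors of double-stranded RNA rose, and none of their APT121 pools overlapped a wild type pool. Ddx58 (10512067), the gene of RIG-I, had 8.36, 8.35, 8.45 and 8.48 in APT121 pools, against 6.47, 6.63 and 6.87 as the lowest, median and highest in wild type pools. The APT121 pools were close together, and the rise was 3.41-fold (1.77 ± 0.08, adjusted p = 3.12e-11). Dhx58 (10391207), which encodes the regulatory helicase LGP2, had 4.95, 4.96, 5.67 and 5.43 in APT121 pools and 3.86, 4.04 and 4.23 in wild type pools. Pools 3 and 4 were higher than pools 1 and 2, and the difference was 1.22 ± 0.12 (adjusted p = 4.78e-07). Tlr3 (10578493), the endosomal receptor, had 6.84, 6.78, 6.53 and 7.09 in APT121 pools, with 5.48, 5.69 and 5.83 in wild type pools (1.12 ± 0.10, adjusted p = 7.76e-08). Here pool 3 was the lowest of the APT121 pools. Ifih1 (10483110), the gene of MDA5, had 8.03, 7.95, 8.00 and 8.28 in APT121 pools, with 6.74, 6.93 and 7.31 in wild type pools (1.10 ± 0.10, adjusted p = 2.46e-07).

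The transcription factors split. Irf7 (10569102), the factor that amplifies type I interferon production and is itself interferon-induced, had 7.26, 7.02, 7.71 and 7.70 in APT121 pools, against 5.56, 5.75 and 6.15 as the lowest, median and highest in wild type pools. Pools 3 and 4 were again above pools 1 and 2, and the rise was 3.12-fold (1.64 ± 0.13, adjusted p = 2.51e-08). Irf1 (10376060), an activator induced by interferon gamma, had 7.68, 7.61, 7.64 and 7.76 in APT121 pools and 6.58, 6.77 and 6.88 in wild type pools (0.92 ± 0.07, adjusted p = 7.57e-09). A second Irf1 cluster (10385870) did not move with it (5.05 in APT121 and 5.09 in wild type, difference -0.04, adjusted p = 0.674 over all clusters), and the mean of both clusters rose by 0.44 (adjusted p = 1.39e-05). Irf2 (10571705), an IRF1 antagonist at many promoters, had 8.00, 8.14, 7.98 and 8.10 in APT121 pools and 7.04, 7.22 and 7.41 in wild type pools (0.84 ± 0.08, adjusted p = 1.22e-07). For both Irf1 and Irf2 the groups lay apart with little spread among APT121 pools.

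Irf8 and Irf3 fell. Irf8 (10576034), a factor of myeloid and B cell development, had 6.32, 6.07, 6.35 and 6.40 in APT121 pools, against 6.69, 6.89 and 6.95 in wild type pools, a fall with no overlap (-0.59 ± 0.07, adjusted p = 5.25e-06). Irf3 (10552812), the constitutive factor activated by the RNA sensors, had 7.62, 7.63, 7.43 and 7.61 in APT121 pools and 7.65, 7.85 and 8.01 in wild type pools. The gap between the groups was narrow, and the fall (-0.28 ± 0.07, adjusted p = 0.00508) did not pass against wild type pools 5 to 8 alone (-0.19, adjusted p = 0.0567). After quantile normalisation it was -0.44 (adjusted p = 3.96e-05). Irf9 (10415319), the DNA-binding subunit of the type I complex, had 7.26, 7.24, 7.51 and 7.51 in APT121 pools and 6.72, 7.00 and 7.26 in wild type pools. The groups overlapped, since wild type pools 5 to 8 (7.06 to 7.26) exceeded pools 1 to 4, and the rise of 0.38 ± 0.11 (adjusted p = 0.00892) was 0.20 against pools 5 to 8 alone (adjusted p = 0.0890) and 0.22 after quantile normalisation (adjusted p = 0.153). Stat2, its partner in that complex, had 7.90, 7.73, 8.01 and 8.25 in APT121 pools and 7.80, 7.92 and 8.10 in wild type pools (0.07 ± 0.09, interval -0.12 to 0.25, adjusted p = 0.540). Irf5, a factor downstream of Toll-like receptors, had 5.08, 5.07, 4.96 and 5.01 in APT121 pools and 4.90, 4.98 and 5.08 in wild type pools (0.05 ± 0.06, interval -0.07 to 0.17, adjusted p = 0.471). The groups of both overlapped, and neither passed the test.

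**Figure D3:**
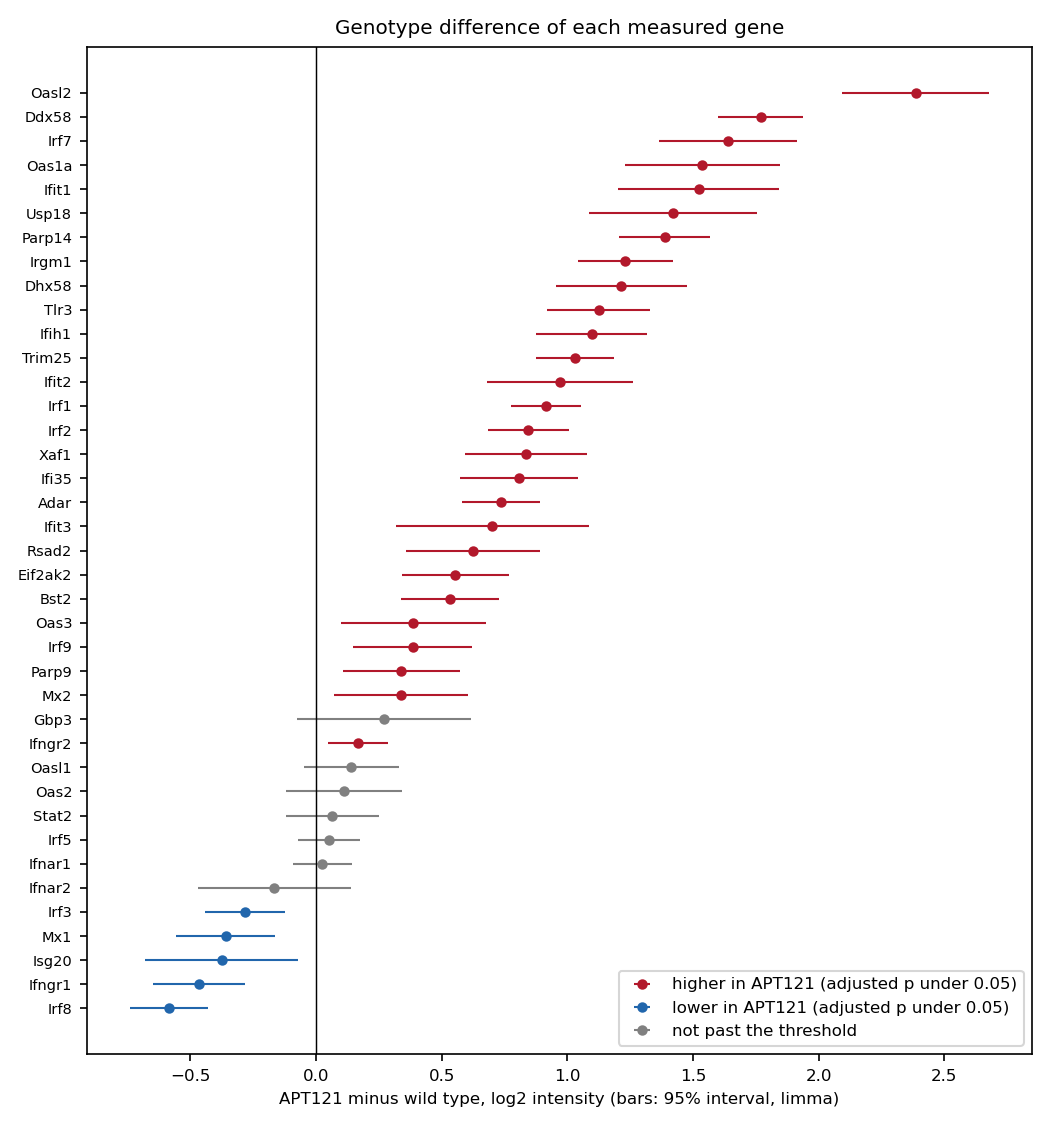
Difference of each measured member in log2 units, APT121 less wild type (points), with its 95% interval from limma (bars), ordered from highest to lowest. Red marks the 27 genes that were higher, blue the 5 that were lower and grey the 7 that did not pass; Oasl2 is at 2.39 and Irf8 at -0.59.

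Among the effectors, the 2′-5′ oligoadenylate synthetase (OAS) family was uneven. Many of these enzymes make a messenger that activates RNase L, which cuts RNA. Oasl1 and Oasl2 encode members of the family with a ubiquitin-like tail. Oasl2 (10524621) had 8.09, 7.79, 8.53 and 8.43 in APT121 pools, against 5.43, 5.85 and 6.12 as the lowest, median and highest in wild type pools. This was the largest rise of the 39 genes, 5.23-fold (2.39 ± 0.14, adjusted p = 5.58e-10). Oasl1, in contrast, had 6.19, 6.29, 6.40 and 6.76 in APT121 pools and 6.13 to 6.34 in wild type pools, with a difference of 0.14 ± 0.09 (interval -0.05 to 0.33, adjusted p = 0.192). Oas1a (10533256) had 6.35, 6.46, 6.84 and 6.89 in APT121 pools and 4.61, 5.14 and 5.48 in wild type pools (1.54 ± 0.14, adjusted p = 2.07e-07), with pools 3 and 4 the highest. Oas3 (10533213) had 4.44, 4.21, 4.78 and 4.88 in APT121 pools and 3.78, 4.29 and 4.42 in wild type pools. Its groups overlapped, and its rise (0.39 ± 0.14, adjusted p = 0.0253) lost the call without APT121 pool 3 (adjusted p = 0.0876) or pool 4 (adjusted p = 0.107) and against either set of 4 wild type pools (adjusted p = 0.0614 for pools 1 to 4 and 0.0591 for pools 5 to 8). Without wild type pools 5, 6 and 7 the adjusted p of Oas3 was 0.0626. The exact permutation test of Oas3 over the 12 pools gave an unadjusted p of 0.0525. Oas2 had 4.15, 4.08, 4.60 and 4.18 in APT121 pools and 3.81, 4.16 and 4.39 in wild type pools, with only pool 3 of APT121 above the wild type range (0.11 ± 0.11, interval -0.12 to 0.34, adjusted p = 0.401). Oas1a and its close copies share sequence, so the value of 1 of them may hold signal of another.

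The 3 IFIT genes, whose proteins bind viral RNA and hold back its translation, all rose. Ifit1 (10462623) had 5.99, 5.69, 6.36 and 6.52 in APT121 pools, against 4.22, 4.66 and 4.93 in wild type pools, a 2.87-fold rise (1.52 ± 0.15, adjusted p = 3.82e-07). Ifit2 (10462613) had 5.64, 5.65, 5.89 and 6.27 in APT121 pools and 4.48, 4.87 and 5.16 in wild type pools (0.97 ± 0.14, adjusted p = 1.96e-05). For both, the lowest APT121 pool was above the highest wild type pool. Ifit3 (10462618) had 4.43, 4.65, 5.76 and 4.89 in APT121 pools and 4.08, 4.15 and 4.53 in wild type pools, with pool 3 well above the rest and pool 1 within the wild type range. Its rise of 0.70 ± 0.18 (adjusted p = 0.00413) was 0.43 without pool 3 (adjusted p = 0.00750).

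The other effectors that act on RNA moved both ways. Adar (10493565), the adenosine deaminase that edits double-stranded RNA, had 7.87, 7.80, 8.01 and 8.02 in APT121 pools and 7.04, 7.16 and 7.34 in wild type pools (0.74 ± 0.07, adjusted p = 4.00e-07). Eif2ak2 (10452980), the gene of the kinase PKR, which halts translation, had 6.52, 6.76, 6.97 and 6.82 in APT121 pools and 5.98, 6.20 and 6.52 in wild type pools (0.55 ± 0.10, adjusted p = 2.37e-04). The Adar groups lay apart, and the Eif2ak2 groups met at the lowest APT121 pool. Isg20 (10554240), a 3′ exonuclease, had 7.67, 7.52, 7.59 and 7.67 in APT121 pools and 7.61, 8.01 and 8.40 in wild type pools. Wild type pools 1 to 4 (7.61 to 7.92) were all below pools 5 to 8 (8.09 to 8.40), and the fall (-0.38 ± 0.14, adjusted p = 0.0377) was -0.10 against pools 1 to 4 (adjusted p = 0.351), -0.65 against pools 5 to 8 (adjusted p = 9.12e-05) and -0.23 without pools 5, 6 and 7 (adjusted p = 0.179). Leaving out any single APT121 pool, or any single one of wild type pools 5 to 8, also ended the call (differences of -0.32 to -0.40, adjusted p up to 0.0979).

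**Figure D4:**
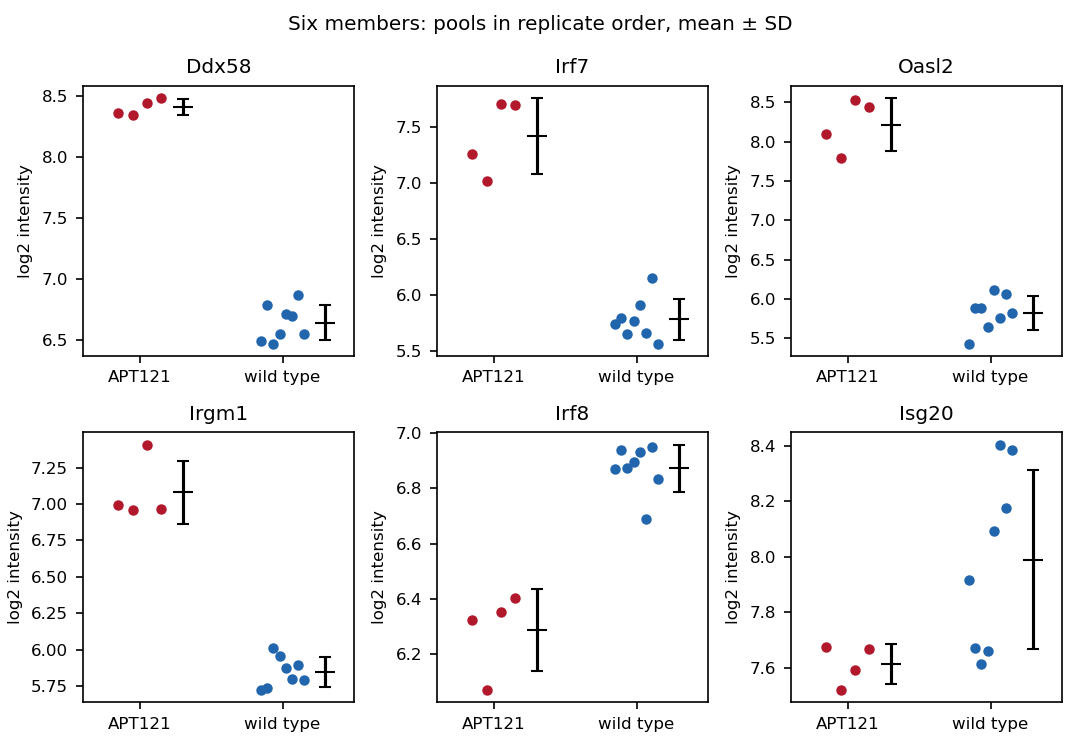
Log2 intensity (y axis, own scale in each panel) of 6 members in the 4 APT121 pools (red) and the 8 wild type pools (blue), in replicate order within a group, with mean ± SD in black. Ddx58, Irf7, Oasl2 and Irgm1 are higher and Irf8 lower in APT121 with no overlap, while Isg20 in wild type falls into pools 1 to 4 (7.61 to 7.92) and 5 to 8 (8.09 to 8.40).

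The measured GTPases were led by Irgm1. Irgm1 (10385500), an immunity-related GTPase of cell membranes that acts against intracellular pathogens, had 6.99, 6.96, 7.41 and 6.97 in APT121 pools, against 5.72, 5.84 and 6.02 in wild type pools. Pool 3 stood above the other APT121 pools, and the difference was 1.23 ± 0.09 (adjusted p = 8.38e-09). The dynamin-like antiviral gene Mx1 (10441233) went the other way, with 3.64, 3.42, 3.57 and 3.84 in APT121 pools and 3.81, 3.94 and 4.31 in wild type pools (-0.36 ± 0.09, adjusted p = 0.00396), and its paralogue Mx2 (10437224) had 3.19, 2.87, 3.71 and 3.07 in APT121 pools and 2.60, 2.89 and 3.08 in wild type pools. The Mx groups overlapped, and C57BL/6J and other laboratory strains are known to carry defective Mx1 alleles. Both values were low, with means at percentile 25.9 (Mx1) and 9.80 (Mx2) of all genes, and whether they lie above background was not tested. The rise of Mx2 (0.34 ± 0.12, adjusted p = 0.0323) was 0.17 without APT121 pool 3 (adjusted p = 0.159) and also lost its call without APT121 pool 1 (adjusted p = 0.0602) or wild type pool 3 (adjusted p = 0.0547). The difference of Mx2 also missed the threshold after centring (0.29, adjusted p = 0.0565), against wild type pools 5 to 8 alone (0.26, adjusted p = 0.179) and without wild type pools 5, 6 and 7 (0.36, adjusted p = 0.0624). Gbp3, a guanylate-binding protein gene, had 5.87 in APT121 pool 3, against 4.79, 4.85 and 5.02 in pools 1, 2 and 4, and 4.51 to 5.06 in wild type pools. It did not pass (0.27 ± 0.16, interval -0.08 to 0.62, adjusted p = 0.174).

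Of the genes of ISG15, a ubiquitin-like modifier joined to proteins during the interferon response, 2 were measured and both rose. Usp18 (10541307), the protease that removes ISG15 and dampens the type I receptor, had 6.06, 6.05, 6.63 and 6.83 in APT121 pools, against 4.54, 5.01 and 5.24 in wild type pools, a 2.68-fold rise (1.42 ± 0.16, adjusted p = 1.42e-06). Trim25 (10380260), a ubiquitin ligase known to activate RIG-I, had 8.27, 8.17, 8.09 and 8.41 in APT121 pools and 7.10, 7.19 and 7.34 in wild type pools (1.03 ± 0.07, adjusted p = 6.99e-09). Neither gene had overlapping groups. Of the ISG15 conjugation enzymes outside the members, the E2 gene Ube2l6 rose by 1.54 ± 0.13 (adjusted p = 6.48e-08) and the E1 gene Uba7, chosen after its values were seen, by 0.50 ± 0.09 (adjusted p = 1.87e-04).

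All 6 remaining effectors rose. Parp14 (10439249), an ADP-ribosyltransferase, had 7.92, 7.76, 8.15 and 8.16 in APT121 pools, against 6.42, 6.59 and 6.79 in wild type pools (1.39 ± 0.09, adjusted p = 1.35e-09). Xaf1 (10378068), a binding partner of the apoptosis inhibitor XIAP, had 5.64, 5.96, 6.17 and 5.84 in APT121 pools and 4.76, 5.04 and 5.39 in wild type pools (0.84 ± 0.11, adjusted p = 1.44e-05). Ifi35 (10381408), which encodes an interferon-induced partner of NMI, had 7.04, 6.96, 7.26 and 7.33 in APT121 pools and 6.03, 6.42 and 6.59 in wild type pools (0.81 ± 0.11, adjusted p = 1.55e-05). In all 3 the groups were apart. Rsad2, the gene of the antiviral enzyme viperin, rose by 0.62 ± 0.13 (adjusted p = 6.27e-04), with APT121 pools 3 and 4 (6.07 and 6.15) above pools 1 and 2 (5.56 and 5.40), and Bst2, the gene of tetherin, which holds budding virus at the membrane, by 0.53 ± 0.09 (adjusted p = 1.53e-04). Parp9 (10435457) had 7.55, 7.50, 7.85 and 7.58 in APT121 pools and 6.94, 7.23 and 7.65 in wild type pools. The Parp9 groups overlapped, and its rise (0.34 ± 0.11, adjusted p = 0.0162) lost the call after quantile normalisation (0.17, adjusted p = 0.268), without APT121 pool 3 (0.26, adjusted p = 0.0701) and against wild type pools 5 to 8 alone (0.28, adjusted p = 0.121). Dtx3l, the gene of its partner ubiquitin ligase and chosen after its values were seen, rose by 0.95 ± 0.08 (adjusted p = 5.17e-08).

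The pathway was widened by 105 further genes, listed by role with earlier results of these data known, of which 91 were measured. Of these, 44 rose and 9 fell (48.4% and 9.89%, beside 22.8% and 30.0% of all genes), with a median difference of 0.25. Other interferon-stimulated genes took most of the rises, with 32 of 51 higher, 1 lower and a median of 0.68. Lgals3bp, a secreted glycoprotein that binds galectins, had 10.39, 10.29, 10.75 and 10.91 in APT121 pools, against 6.82 to 7.77 in wild type pools (3.18 ± 0.17, adjusted p = 2.20e-10), a larger difference than any of the 39 members showed. Ddx60, a helicase linked to RIG-I signalling, rose by 2.26 ± 0.18, Rtp4, a receptor-transporting protein, by 2.15 ± 0.16 and the nuclear body gene Sp100 by 1.55 ± 0.09. Ifitm1, an antiviral membrane protein gene, was the one that fell (-0.57 ± 0.09, adjusted p = 5.83e-05).

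Transcripts of the interferons themselves were not called higher. Of 13 measured ligand genes, 0 rose by limma (also 0 at an unadjusted p of 0.05), where 22.8% of all genes rose. A fall was called for 3 (23.1%), a share below the 30.0% of all genes that fell. The 3 were Ifnb1 (-0.30 ± 0.09, adjusted p = 0.0147), Ifna5 (-0.28 ± 0.10, adjusted p = 0.0275) and Ifnz (-0.28 ± 0.07, adjusted p = 0.00532). Ifnb1 had 2.90, 2.86, 3.15 and 2.95 in APT121 pools and 3.07 to 3.63 in wild type pools. Of the 13, 10 had a mean not above that of the median gene, so a change in them may not be detectable here.

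Signal transducers and brakes rose for 7 of 11 genes and fell for 2, with a median of 0.28. The receptor kinase gene Jak2 had 9.51, 9.31, 9.01 and 9.58 in APT121 pools, against 7.50 to 7.92 in wild type pools (1.64 ± 0.11, adjusted p = 5.98e-09). Pias1, a SUMO ligase that restrains STAT proteins, rose by 0.38 ± 0.09 and Ifnlr1, the specific chain of the interferon lambda receptor, by 0.30 ± 0.08. Socs1, a feedback inhibitor of the receptor kinases, fell by 0.57 on the log2 scale (adjusted p = 4.36e-05), with 5.68, 5.45, 5.61 and 5.59 in APT121 pools and 5.98 to 6.49 in wild type pools, and the phosphatase gene Ptpn11 differed by -0.22 ± 0.08 (adjusted p = 0.0293). Other sensors and adaptors rose for 5 of 16 genes and fell for 3, with a median of 0.06. These shares, 31.25% and 18.75%, were not far from the 22.8% and 30.0% of all genes. The ubiquitin ligase gene Trim56 rose by 0.99 ± 0.09, Tlr4, the receptor of bacterial lipopolysaccharide, by 0.96 ± 0.13, and Ikbke, a kinase of IRF3, by 0.56 ± 0.10. Aim2, a sensor of DNA in the cytosol, fell (-1.27 ± 0.34, adjusted p = 0.00580), with 3.92, 3.52, 3.60 and 3.94 in APT121 pools and from 4.02 to 6.00 in wild type pools, where pools 2, 3 and 4 held the highest values. Nlrc5, an activator of MHC class I genes, differed by -0.33 ± 0.13 (adjusted p = 0.0416) and the adaptor gene Ticam2 by -0.31 ± 0.10 (adjusted p = 0.0188).

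The APT121 pools differed in their level of the members, and not in one order for all of them. The median deviation of the members from the wild type mean was 0.39, 0.42, 0.84 and 0.69 in APT121 pools 1 to 4, against -0.04 to 0.07 in the wild type pools. Pool 4 held the highest APT121 value for 18 of the 39 members and pool 3 for 13, while pool 2 held the lowest for 23. The median SD of a member was 0.20 in APT121 and 0.15 in wild type, beside 0.12 in APT121 and 0.14 in wild type for all genes. For the sensors the pool levels were 1.11, 1.04, 1.33 and 1.40 in APT121, and for the GTPases 0.13, -0.01, 0.92 and 0.18. Of the sensors, Ddx58, Ifih1 and Tlr3 were highest in pool 4 and Dhx58 in pool 3, while Tlr3 was lowest in pool 3.

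Immune cells use many of these genes, so markers of such cells were set beside them. Counts here and in the next paragraph are to be read beside 22.8% of all genes that rose and 30.0% that fell. Of 21 measured myeloid markers 14 rose and 2 fell (median 0.58), and their level was 0.54, 0.58, 0.95 and 0.24 in APT121 pools 1 to 4, against -0.12 to 0.13 in wild type pools. Their summed intensity ran from 1240 to 2432 in APT121 pools and from 982 to 1199 in wild type pools. Laptm5 rose by 1.27 ± 0.12 and Lyz2, the lysozyme gene of macrophages, by 0.58 ± 0.24 (adjusted p = 0.0490). The Lyz2 values were 8.15, 8.41, 8.89 and 7.02 in APT121 pools, the last below all wild type pools (7.26 to 7.90). Pool 3 was thus the highest for myeloid markers and for the median member, while pool 4 was the lowest APT121 pool for myeloid markers and the second highest for the members. Of 15 lymphocyte markers, none with a mean above that of the median gene, 6 rose and 1 fell (median 0.02, range -0.29 to 1.59), with pool levels of 0.01 to 0.14 in APT121 and -0.08 to 0.12 in wild type and sums of 306 to 357 in APT121 and 228 to 269 in wild type. Of those 15, Ptprc, the pan-leukocyte antigen CD45, rose by 0.70 ± 0.12 and Cd3e by 0.24 ± 0.09 (adjusted p = 0.0417). Plasmacytoid dendritic cells, a main source of type I interferon, had 4 markers measured, of which 0 rose by limma (also 0 at an unadjusted p of 0.05) and 2 fell, Pacsin1 (-0.32) and Cox6a2 (-0.31). Siglech (-0.09, adjusted p = 0.535) and Ccr9 (-0.21, adjusted p = 0.0532) did not pass. The 4 had summed intensities of 73.3 to 92.1 in APT121 pools and 94.0 to 112 in wild type pools, and none of the 4 had a mean above that of the median gene.

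Epithelial, stromal and cycling cell markers also differed between the genotypes. Of 9 luminal markers 5 rose and 3 fell (median 0.70; sums 19151 to 19816 in APT121 and 18201 to 20228 in wild type). All 6 basal markers fell (median -0.80; sums 405 to 612 in APT121 and 848 to 1045 in wild type), as did all 6 of smooth muscle (median -0.87; 6512 to 8757 in APT121 and 10825 to 12516 in wild type), all 6 of fibroblasts (median -0.55; 1680 to 2888 in APT121 and 3417 to 4017 in wild type), all 4 of adipose tissue (median -0.81; 79.7 to 114 in APT121 and 115 to 407 in wild type) and 6 of 8 of endothelium (median -0.43; 401 to 427 in APT121 and 540 to 654 in wild type). All 6 markers of cycling cells rose (median 4.37; sums 4833 to 6563 in APT121 and 453 to 622 in wild type). Seminal vesicle genes, which stand for neighbouring tissue, rose for 3 of 6, with sums from 1538 to 17953 in APT121 pools and from 78.4 to 15741 in wild type pools. In wild type, pool 6 was the one that carried them, with a median deviation of 5.52. The highest sum among the other wild type pools was 174 (pool 3). All APT121 pools were above that sum, the lowest being pool 1 at 1538. Without wild type pool 6, 27 members were higher and 4 lower. That fit keeps sums of this size in APT121 pools only, so it cannot separate neighbouring tissue from genotype. The part of any of these cell types in the members' differences was not tested.

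**Figure D5:**
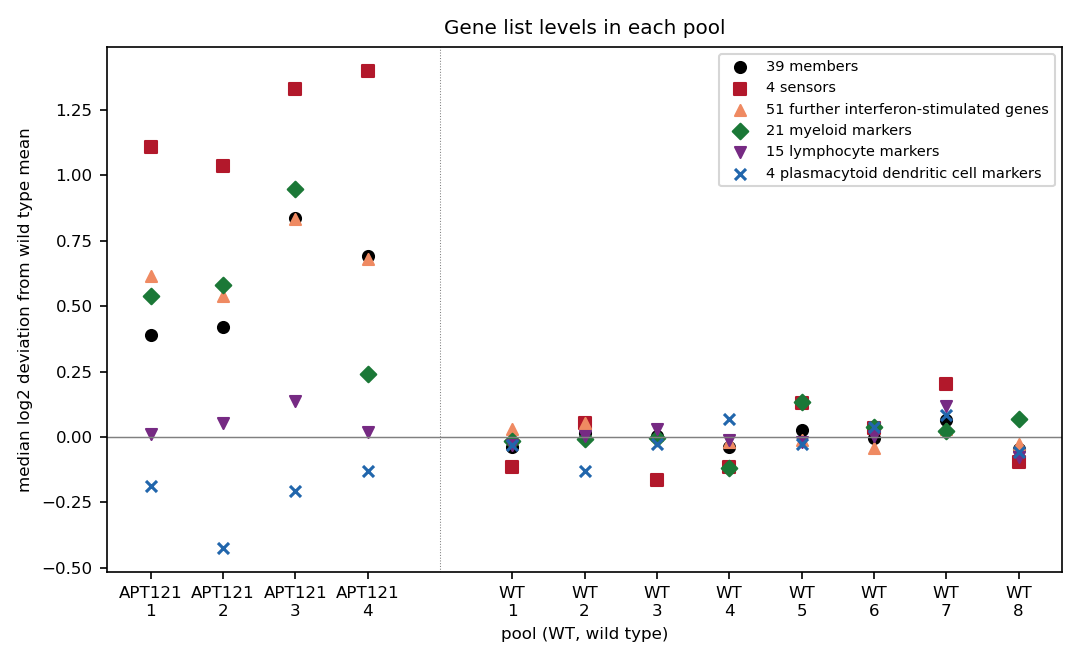
Median log2 deviation from the wild type mean (y axis) of 6 gene lists in each APT121 pool (left) and each wild type pool (right). The 39 members lie between 0.39 and 0.84 in APT121 and within -0.04 to 0.07 in wild type, and the myeloid markers are highest in APT121 pool 3 (0.95) and lowest among APT121 pools in pool 4 (0.24).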

How the data were processed

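Total RNA of 12 pools was hybridised to single-colour arrays, and the authors normalised the intensity values with RMA, per the design text and the submitters' processing notes. The deposited table holds 1 linear intensity per transcript cluster and array (28815 clusters, 0 missing values). No software version or genome build is named in the sources used here. RMA gives all arrays the same distribution of probe values, which hides differences in total RNA, and precision is limited by how many arrays there were.

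All deposited values were converted to log2. In GEO's platform annotation 21780 clusters had 1 gene symbol, 1605 had several and 5430 had none. Only the first kind was used, and for 998 genes with more than 1 such cluster the one with the highest mean over all arrays stood for the gene. The gene IDs of all 39 measured members were found in the RefSeq table, with the same symbols.

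All 19935 genes entered one two-sided model of genotype without covariates (lmFit, then eBayes; limma 3.58.1 under R 4.3.3) with Benjamini-Hochberg adjustment over all genes and a threshold of 0.05. The design text names SAM at a 5% false discovery rate, which was not run here. The fit was tested on simulated data with independent noise and far fewer changed genes than were called here. That test therefore does not show how the fit behaves with as many changes as in these data. Each pool is 1 replicate, so p-values measure the spread between pools of mice and not between single mice. Means, counts and medians of lists are descriptions with no test of the list.

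The members and the lists were chosen with earlier results of these data known. All members are accounted for. Pool values are given for the 3 members of each role with the largest absolute difference past the threshold, for those that moved against their role and for those whose call changed under an alternative. Of the wider lists, the text names up to 5 called genes by size of difference, and every gene that fell where these were 5 or fewer. Of marker lists it names at most the 2 with the highest wild type mean, and all 4 of plasmacytoid dendritic cells. Alternatives covered scaling, low values, moderation, array weights, several clusters per gene, replicate block, the choice of wild type pools, single pools left out, a 1.5-fold minimum and exact permutation of single genes.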

Additional observations from a re-analysis of the deposited data

Results flagged for a closer look

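Within the groups, 78 sets of values (39 members in 4 APT121 pools and in 8 wild type pools) were examined for 1 pool far from the others by Dixon's criterion, and 6 were found. Chance gives about 1 in 20. In APT121 pool 3, Irgm1 was at 7.41 against 6.96 to 6.99 in the other 3 pools, Bst2 was at 7.22 against 6.82 to 6.87, and Irf3 was at 7.43 against 7.61 to 7.63. The same pool had the highest level of myeloid markers. In wild type, Stat2 was at 8.10 in pool 2 against 7.80 to 7.94 in the others, Irf8 was at 6.69 in pool 6 against 6.83 to 6.95, and Mx1 was at 4.31 in pool 1 against 3.81 to 4.01. Leaving out each of these pools kept the calls of Irgm1, Bst2, Irf3, Irf8 and Mx1.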

How the results depend on the processing

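Of the 32 called members, 24 had the same call in each of the 23 alternative fits that tested them and 8 lost it in at least 1 of them (Ifngr2, Irf3, Irf9, Oas3, Ifit3, Isg20, Mx2 and Parp9). The number of members higher ran from 19 (without the lower-expressed 50% of genes, which leaves out members) to 27, and the number lower from 4 to 5. A 1.5-fold minimum left 20 higher and 1 lower (Irf8), with 1 of the wider pathway genes lower, 2288 of all genes higher and 1264 lower. Without the lower-expressed 50% of genes 3326 of all genes were lower. Centring gave 4103 higher and 7824 lower of all genes, against 4540 and 5987 as deposited. Leaving out 1 pool at a time gave 24 to 27 members higher and 4 to 5 lower, and 4 to 10 of the wider pathway genes lower, the fewest without APT121 pool 2. Of members that did not pass, 6 changed sign. Ifnar1 was -0.026 after centring and -0.14 after quantile normalisation, Ifnar2 was 0.077 with the replicate block and against wild type pools 1 to 4, Stat2 was -0.067 after quantile normalisation, Irf5 was -0.000106 after centring and Oasl1 was -0.0057 after quantile normalisation. With single pools left out, Stat2 ran from -0.028 (without APT121 pool 4) to 0.146 and Oas2 from -0.0045 (without APT121 pool 3) to 0.170. The causes were not tested.

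Replicate numbers do not pair the pools by any label, and deviations of same-numbered pools correlated at -0.03 to 0.07 across genes. With the replicate block over pools 1 to 4 of both groups, 24 members were higher and 4 lower, and the calls of Ifngr2 (adjusted p = 0.0568), Ifit3 (0.65, adjusted p = 0.0619), Isg20 (-0.10, adjusted p = 0.330) and Mx2 (adjusted p = 0.0685) were lost. In exact permutation tests over 495 groupings, whose smallest p is 0.00404, 30 members had an unadjusted p under 0.05, and of the called ones Oas3 and Mx2 (both p = 0.0525) did not.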
